A study of Mus musculus with 77 samples.

Results

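The genes described here are the Myc family, Myc, Mycn and Mycl, and 7 genes commonly given as targets of Myc. Of these, Npm1, Ncl, Nop56, Nop58, Fbl and Nolc1 encode nucleolar proteins of ribosome biogenesis, and Odc1 encodes ornithine decarboxylase of polyamine synthesis. They were taken by name, 10 of the 34328 genes of the RefSeq table for mm10, and each was read over its annotated body with 2 kb on either side, called its window below. For every peak list of 3 histone marks, the presence of a peak in the window, the percent of the window under peaks and the window's share of the list's signal were recorded. No cut on these values was used to choose the genes, but they were chosen with earlier results of these data known.

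MYC is a transcription factor that dimerises with MAX and drives growth programmes, among them ribosome assembly in the nucleolus, when lymphocytes are activated. Acetylation of lysine 27 of histone H3 (H3K27ac) marks active promoters and enhancers. Ubiquitylation of histone H2A (H2AK119Ub) and trimethylation of lysine 27 of H3 (H3K27me3) are laid down by Polycomb repressive complexes 1 and 2 and mark genes kept silent. In mature B cells Myc is the family member in use, while Mycn and Mycl are better known from the nervous system and from embryonic tissues.

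The cells were splenic B cells positive for CD23, a marker of follicular B cells, from female mice of unstated age. The assay was CUT&RUN: a nuclease tethered to the antibody cuts out the DNA that carries a mark. Xist, the RNA that silences the inactive X chromosome, was deleted in 2 systems. In the mb1-cre system, WT and Xist fl/fl mice both carried mb1-cre, a Cre expressed from the Cd79a locus throughout the B lineage, so that the floxed allele was lost in vivo. In the ex vivo system, WT and Xist fl/fl cells were given 80 µg of the cell-permeant recombinase TAT-Cre for 45 minutes and then cultured. Naive cells (0 h) went straight to CUT&RUN, and stimulated cells had 24 h in 1 µM CpG oligonucleotide, a ligand of TLR9. The 0 h cells of the ex vivo system had therefore not met TAT-Cre and were a baseline for genotype. All 24 h cells had been both cultured and stimulated, with TAT-Cre in addition in the ex vivo system, and these cannot be told apart. The labels number biological replicates without naming the animals, and all p-values refer to the spread among those libraries alone. Where groups are said below to overlap or to be separate, this describes their values and is not a test. An exact permutation of 3 libraries against 3 cannot go below p = 0.1. The share of all genes with separate groups is not given.

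There were 3 libraries in each of the 8 groups of system, genotype and time for H3K27ac and H2AK119Ub, and 3 to 5 for H3K27me3. The lists held 1329 to 10304 peaks for H3K27ac, 1999 to 40486 for H2AK119Ub and 1950 to 18954 for H3K27me3. A gene without a peak is one whose signal, if any, lay under the lowest peak of that list, called the list's floor, which bears on every count below. For H3K27ac the floor was a median 104 ppm of the list's autosomal signal at 0 h, in a range of 27.6 to 312, and 37.1 ppm at 24 h, in a range of 22.1 to 102. Of 10 B cell marker genes, all had an H3K27ac peak and none an H3K27me3 peak in every library, while H3K27ac peaks lay on 0 to 10.0% of T cell, 0 to 30.0% of myeloid, 0 to 20.0% of NK cell and 0 to 40.0% of erythroid markers. The part of those other cells in the values below was not tested. An H3K27me3 library titled naive, mb1-cre Xist fl/fl replicate 5, has a treatment entry that calls it stimulated; it was kept at 0 h.

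Sequence just before the gene is shown for 4 members that stand at the ends of the range of marks: Ncl and Nolc1, which gained H3K27ac peaks at 24 h, Nop56, which did so in mb1-cre cells, and Mycn, which lay under Polycomb peaks in every list. Each is the stretch from RefSeq's promoter table (GRCm38.p6) that precedes the annotated gene, read 5′ to 3′ on the gene's strand, with each CG dinucleotide in capitals. They lie at chr1:86359456-86359705 (Ncl, minus strand), chr19:46075597-46075846 (Nolc1, plus strand), chr2:130274162-130274366 (Nop56, plus strand) and chr12:12941837-12942086 (Mycn, minus strand).
Ncl: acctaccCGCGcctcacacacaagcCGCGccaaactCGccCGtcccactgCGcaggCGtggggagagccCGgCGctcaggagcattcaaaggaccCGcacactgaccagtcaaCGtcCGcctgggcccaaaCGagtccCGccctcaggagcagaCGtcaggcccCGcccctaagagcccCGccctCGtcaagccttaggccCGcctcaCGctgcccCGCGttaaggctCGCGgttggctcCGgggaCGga
Nolc1: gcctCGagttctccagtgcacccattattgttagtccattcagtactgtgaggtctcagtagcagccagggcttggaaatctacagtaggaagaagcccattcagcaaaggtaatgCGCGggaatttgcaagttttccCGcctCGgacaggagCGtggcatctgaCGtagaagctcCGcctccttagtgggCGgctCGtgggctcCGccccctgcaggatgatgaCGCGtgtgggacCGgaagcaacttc
Nop56: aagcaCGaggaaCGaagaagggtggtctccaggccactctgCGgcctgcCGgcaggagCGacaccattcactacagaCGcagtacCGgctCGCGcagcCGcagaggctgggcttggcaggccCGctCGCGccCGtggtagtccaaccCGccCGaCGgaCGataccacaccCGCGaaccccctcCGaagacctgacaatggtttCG
Mycn: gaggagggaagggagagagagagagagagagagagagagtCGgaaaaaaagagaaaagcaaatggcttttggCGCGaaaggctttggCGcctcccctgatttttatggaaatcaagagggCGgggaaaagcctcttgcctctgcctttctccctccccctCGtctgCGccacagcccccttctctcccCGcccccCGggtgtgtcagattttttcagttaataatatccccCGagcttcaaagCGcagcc

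The printed stretches hold 27 CG dinucleotides in 250 bases for Ncl, 14 in 250 for Nolc1, 22 in 205 for Nop56 and 11 in 250 for Mycn. Over the full window of 300 bases, 250 before and 50 after the start, the 7 members with an entry held 14 (Mycn) to 42 (Odc1), with 33 in Ncl, 32 in Nop56, 22 in Mycl, 18 in Nolc1 and 17 in Nop58, and the median of 32851 promoters was 7. All 7 were thus above the median, the acetylated and the Polycomb-covered alike. The share of promoters with as many or fewer CG ran from 65.4% for Mycn to 97.4% for Odc1. The canonical binding motif of MYC and MAX, the E-box CACGTG, which reads the same on both strands, was in 0 of the 7 windows and in 7.15% of all promoters of that length. This says only that those letters are not in these windows. The CG dinucleotides of the genome are not the CpG oligonucleotide used as stimulus. Myc, Npm1 and Fbl have no entry in the table.

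The 10 genes fell into distinct patterns of marks. Myc had H3K27ac in 21 of 24 lists, H2AK119Ub in 18 of 24 and H3K27me3 in 0 of 29. Mycn and Mycl had H3K27ac in 0 of 24 lists and H2AK119Ub in 24 of 24, with H3K27me3 in 29 and 26 of 29. The nucleolar genes had H3K27ac mainly at 24 h, from 6 of 12 lists for Npm1 to 11 of 12 for Ncl, and Ncl, Nop56, Fbl and Nolc1 had H3K27me3 in 0 of 29. Odc1 had H3K27ac in 2 lists only.

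**Figure D1:**
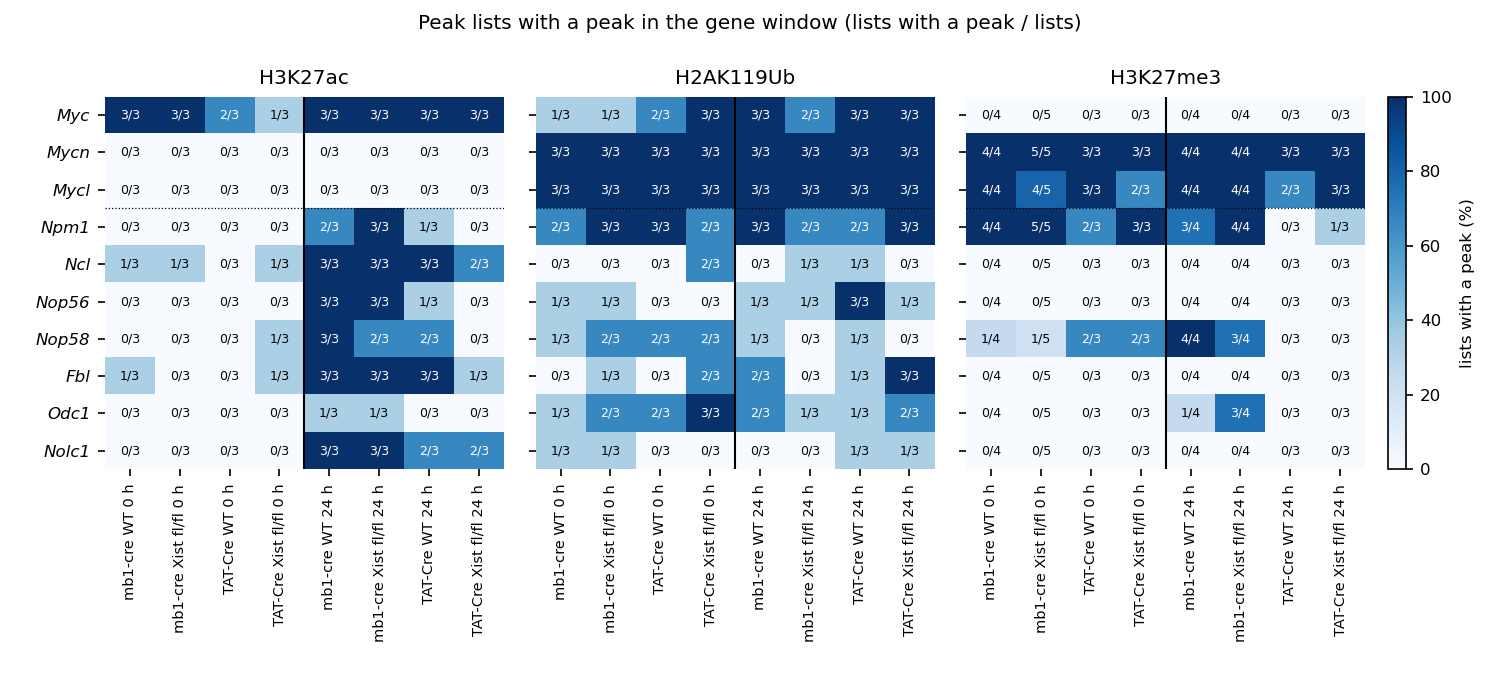
Number of peak lists with a peak in each gene's window, out of the lists of that group, for H3K27ac, H2AK119Ub and H3K27me3; the vertical line in each panel separates 0 h from 24 h, and colour gives the percent. Mycn and Mycl carry both Polycomb marks and no H3K27ac, and most H3K27ac peaks of the other genes lie to the right of the line.

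Myc (chr15:61985341-61990361) was acetylated before stimulation. At 24 h its acetylated domain covered the whole window in every mb1-cre list and in some TAT-Cre lists. In WT cells of the mb1-cre system H3K27ac peaks covered 55.6, 54.8 and 56.1% of the window at 0 h and 100% in all 3 libraries at 24 h. With Xist deleted in vivo they covered 87.4, 56.1 and 75.5%, and again 100% in all 3. Every mb1-cre library at 24 h thus lay above every mb1-cre library at 0 h, for both genotypes. Of the TAT-Cre libraries, WT had coverage of 52.9, 0 and 54.2% at 0 h and 100, 100 and 77.9% at 24 h. Xist fl/fl had 0, 56.1 and 0%, and then 56.1, 78.7 and 88.8%. Here too no 0 h library lay above a 24 h library of its genotype, although the highest and the lowest were level at 56.1% in Xist fl/fl cells. Over all groups the covered part was 46.1 percentage points larger at 24 h (SE 7.24, limma, adjusted p = 6.49e-05 over all genes tested), in a fit that called 50.8% of 9709 genes higher and 52.5% in either direction. In lists of equal length it was 31.6 points (adjusted p = 0.109) and was not called. Myc then had a peak in 4 of 24 lists, all at 24 h, so that value could only be higher.

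In the lists that held a Myc peak, the change lay at the downstream side. The widest peak at Myc measured 6190 to 10963 bp at 0 h, with a median of 7766 bp in 9 lists, and 7730 to 17200 bp at 24 h, with a median of 14043 bp in 12 lists. Its upstream edge moved little, from 3132 to 6157 bp before the gene at 0 h to 4361 to 7278 bp at 24 h. Its downstream edge passed the end of the gene in 1 of 9 lists at 0 h and in 9 of 12 at 24 h, with median distances past that end of -1963 bp, which is short of it, and 3920 bp. The 24 h lists in which it stayed short were all TAT-Cre, at -2028 bp (WT) and -1963 and -2080 bp (Xist fl/fl). These edges were examined after the coverage had been seen and were not tested.

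**Figure D2:**
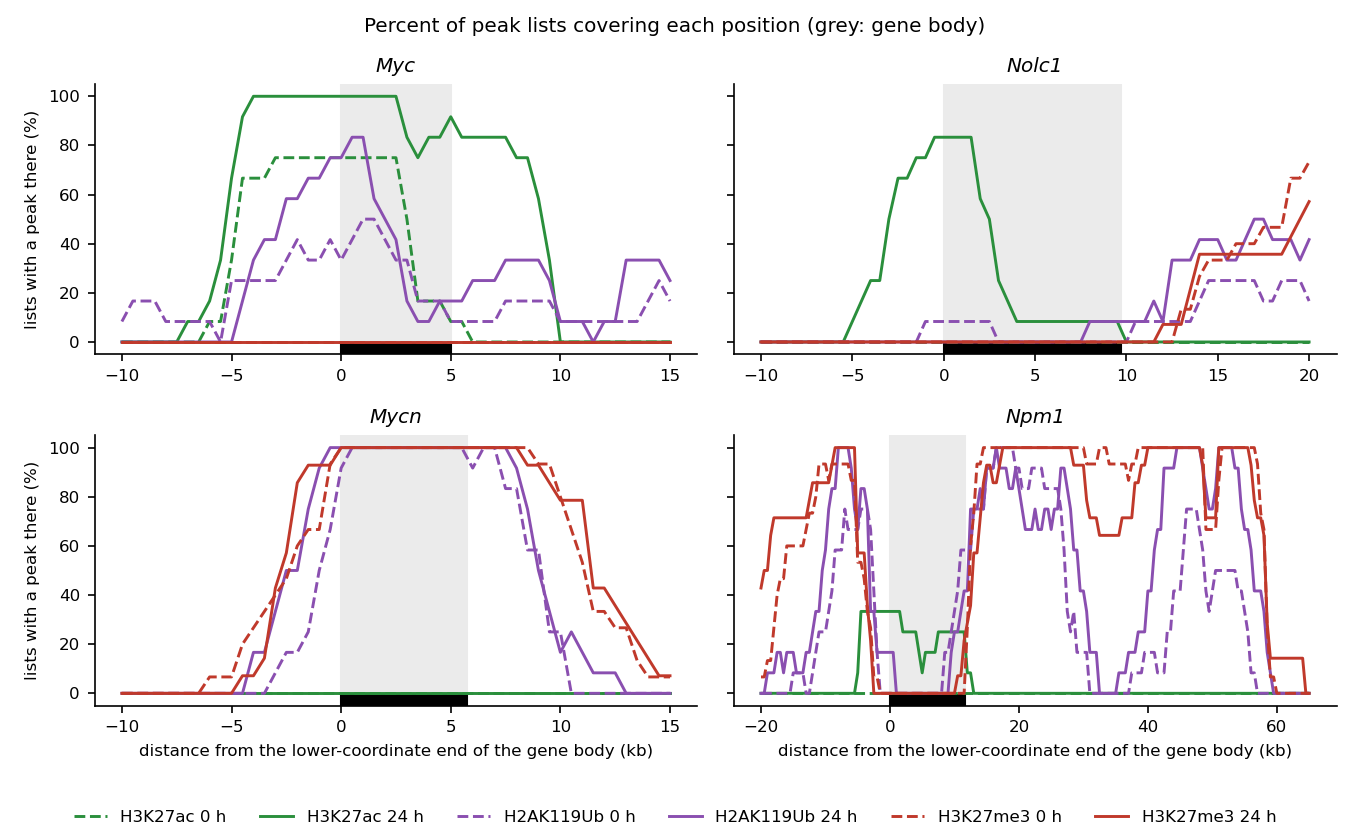
Percent of peak lists that cover each position (y axis) against distance in kb from the lower-coordinate end of the gene body (x axis; grey band and black bar, the gene body), for 3 marks at 0 h (dashed) and 24 h (solid). At Myc H3K27ac extends past the gene in 9 of 12 lists at 24 h. At Mycn both Polycomb marks span the gene. At Npm1 they leave the middle of the gene free, but H2AK119Ub touches the gene in 13 of 24 lists and H3K27me3 in 5 of 29.

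The share of H3K27ac signal in the Myc window differed between the times in some groups only. It was 68.2, 89.1 and 69.0 ppm at 0 h and 108, 91.7 and 94.5 ppm at 24 h in mb1-cre WT libraries, and 90.9, 78.0 and 74.8 ppm against 83.5, 120 and 84.9 ppm in mb1-cre Xist fl/fl libraries. TAT-Cre WT cells had 67.0, 0 and 92.1 ppm and then 103, 126 and 86.5 ppm, and Xist fl/fl cells 0, 93.3 and 0 ppm and then 101, 157 and 124 ppm. The 0 h and 24 h values overlapped for mb1-cre Xist fl/fl and for TAT-Cre WT and were separate for mb1-cre WT and for TAT-Cre Xist fl/fl. Over all groups the difference on the log2(ppm + 1) scale was 1.98 (SE 0.74, limma, adjusted p = 0.0327). That value rests on the 3 lists at 0 in the TAT-Cre system, whose floors of 264 to 312 ppm lay above any Myc peak: in mb1-cre cells alone it was 0.38 in WT (adjusted p = 0.942) and 0.23 in Xist fl/fl (adjusted p = 0.949). Without TAT-Cre Xist fl/fl 0 h replicate 1 or replicate 3 it was 1.70 (adjusted p = 0.067 and 0.0669).

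H2AK119Ub was also listed at Myc, in 7 of 12 libraries at 0 h and 11 of 12 at 24 h. Mb1-cre cells had it in 1 of 3 libraries of each genotype at 0 h, covering 88.9% (WT) and 78.0% (Xist fl/fl) of the window, and in 5 of 6 libraries at 24 h. The log2 difference in signal share was 1.73 (SE 0.82, adjusted p = 0.0953), which did not pass the threshold of 0.05. The 5 genes whose H3K27ac signal share followed that of Myc most closely over 24 libraries, among 7675 protein-coding genes, were Pik3cg, with a Pearson correlation of 0.997, and Sipa1, Nfkbiz, Cage1 and Nudcd3, each at 0.996. Each had a peak in 21 lists, so these values share the same absent peaks with Myc and the depth of the same lists. The acetylated target genes had correlations of 0.223 (Npm1) to 0.463 (Ncl) with Myc.

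Mycn (chr12:12936093-12941836) was covered by both Polycomb marks in every library. H3K27me3 covered 81.7 to 100% of its window, with a median of 100% at 0 h and at 24 h. H2AK119Ub covered 77.3 to 100%, with medians of 87.5% at 0 h and 98.6% at 24 h. In mb1-cre WT libraries H2AK119Ub went from 91.6, 80.0 and 100% to 100, 100 and 98.7%, and in TAT-Cre WT cells from 100, 89.9 and 98.2% to 100, 98.1 and 93.9%. In mb1-cre Xist fl/fl libraries it went from 93.9, 77.5 and 77.3% to 92.8, 100 and 98.5%, and in TAT-Cre Xist fl/fl cells from 85.2, 81.2 and 83.8% to 88.3, 98.6 and 100%. The times overlapped in all groups but the last. The pooled rise, 1.33 points in TAT-Cre WT and 9.03 to 14.2 points in the other groups, was 9.20 percentage points (SE 2.44, limma, adjusted p = 0.00757) in a fit that called 35.2% of 20695 genes. In lists of equal length it was 16.2 points (adjusted p = 0.0823). The signal share differed the other way, by -0.33 on the log2 scale (SE 0.32, adjusted p = 0.419), and did not pass the test.

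Mycl (chr4:122995588-123002490) had the same marks with a boundary that differed between the systems. In mb1-cre cells H3K27me3 peaks covered a median 89.97% of the window in 17 lists, and in TAT-Cre cells a median 36.7% in 12 lists. Counted from the start of the gene, the peak began at -3354 to -551 bp in the 16 mb1-cre lists that had it, so that RefSeq's promoter window was covered in 16 of 17. In the TAT-Cre lists it began at 596 to 967 bp, inside the gene, and 0 of 12 covered that window. H2AK119Ub peaks covered it in 12 of 12 mb1-cre and 10 of 12 TAT-Cre lists. The covered part under H3K27me3 was lower in TAT-Cre cells, with a difference of -44.3 points (SE 9.05, limma, adjusted p = 0.00149), in a fit that called 37.9% of 11663 genes. The signal share was not called between systems, with medians of 66.6 ppm in TAT-Cre and 75.2 ppm in mb1-cre lists. Of 13 other settings, coverage was the only 1 that called this difference. WT cells at 0 h, which had an intact Xist and no TAT-Cre, had 34.0 to 75.6% in 3 TAT-Cre lists and 70.0 to 100% in 4 mb1-cre lists. These ranges overlapped and were not tested on their own. The systems were separate experiments, and the presence of mb1-cre cannot be told apart from any other difference between them.

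The CpG difference in H3K27me3 signal share did not pass the test for either gene, at -0.03 (SE 0.18) on the log2 scale for Mycn and 0.36 (SE 0.74) for Mycl. The value for Mycn is a mean over groups that went different ways. Its share had a median of 176 ppm at 0 h and 117 ppm at 24 h in mb1-cre WT, and of 148 and 104 ppm in mb1-cre Xist fl/fl libraries. In TAT-Cre WT it was 199, 149 and 128 ppm and then 233, 386 and 258 ppm, which did not overlap (exact permutation p = 0.1, adjusted p = 0.447). TAT-Cre Xist fl/fl libraries had 139, 308 and 137 ppm and then 170, 151 and 247 ppm, which did. The difference between systems in that change, TAT-Cre minus mb1-cre, was 0.97 (SE 0.37, limma, adjusted p = 0.0623) and did not pass the test. It was called in 4 of 16 other settings and when any of 4 of 29 libraries was left out, with the smallest p without TAT-Cre Xist fl/fl 0 h replicate 2 (1.16, adjusted p = 0.0125).

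**Figure D3:**
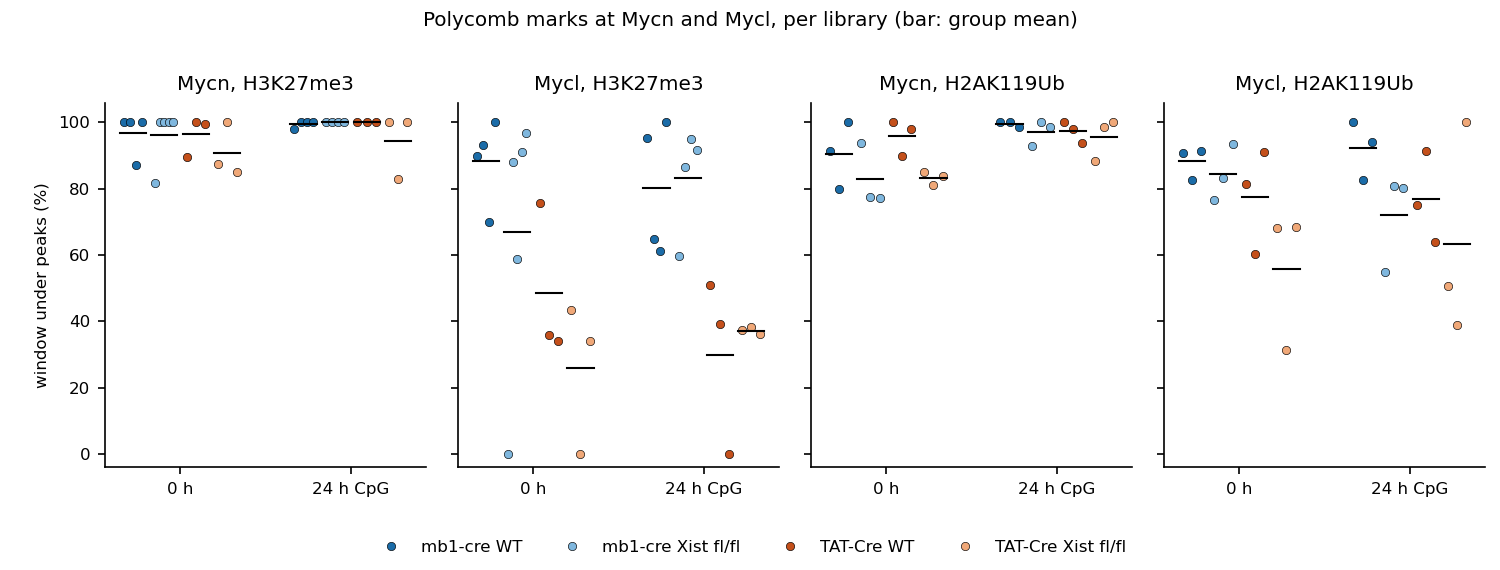
Percent of the Mycn and Mycl windows under H3K27me3 and H2AK119Ub peaks (y axis) at 0 h and 24 h (x axis), 1 point per library coloured by system and genotype, with bars for group means. Mycn stays above 77% in every library, while H3K27me3 at Mycl is lower in TAT-Cre cells, with medians of 36.7% against 89.97%.

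The nucleolar genes gained H3K27ac peaks at 24 h. Of the 10 members, 7 had a peak in at least 3 libraries and were tested. All 7 were called higher at 24 h, beside 44.3% of all 9709 genes tested, with 50.9% called in either direction. Npm1, Nop56 and Nolc1 had no peak at 0 h, passed the filter through 24 h lists alone and had to differ, so that count is given without further reading and these 3 genes are described below with no test. In lists of equal length 25.3% of 2655 genes were higher and 21.3% lower, and the median log2 difference over all genes tested was 0.13 rather than 1.66.

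Ncl (chr1:86344719-86359455) encodes nucleolin, which binds rDNA chromatin and pre-rRNA. Its window was covered to 0, 0 and 30.6% in mb1-cre WT libraries at 0 h and to 47.2, 29.7 and 100% at 24 h. In mb1-cre Xist fl/fl libraries it went from 0, 0 and 22.4% to 84.9, 74.0 and 87.0%. In the TAT-Cre system it went from 0% in all 3 WT libraries to 20.2, 38.4 and 36.5%, and in Xist fl/fl cells from 0, 15.3 and 0% to 31.0, 0 and 19.8%. The times overlapped in mb1-cre WT and in TAT-Cre Xist fl/fl cells and were separate in the others. The log2 difference in signal share was 4.27 (SE 0.96, adjusted p = 0.00136). With only the strongest 50% of peaks in a list, ranked by highest signal, it was 2.62 (adjusted p = 0.0606). The window also holds the small RNA genes Snora75, Snord82 and Gm24148 and part of the non-coding gene C130036L24Rik, whose marks cannot be told apart from those of Ncl.

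Fbl (chr7:28168893-28179269), which encodes fibrillarin, the methyltransferase of the box C/D small nucleolar ribonucleoproteins, had H3K27ac in 2 of 12 lists at 0 h and 10 of 12 at 24 h. It covered 0, 0 and 38.6% in mb1-cre WT libraries at 0 h and 25.8, 22.7 and 63.1% at 24 h. In mb1-cre Xist fl/fl libraries it covered 0% in all 3 libraries and then 55.7, 66.2 and 94.8%. TAT-Cre WT cells went from 0% in all 3 to 22.4, 30.2 and 58.4%. TAT-Cre Xist fl/fl cells alone had as many lists with a peak before as after, with 0, 40.8 and 0% at 0 h and 0, 0 and 24.8% at 24 h. The pooled log2 difference in signal share was 3.98 (SE 0.85, adjusted p = 0.000958), and with only the strongest 50% of peaks in a list, ranked by highest signal, it was 1.46 (adjusted p = 0.0875). The non-coding gene Gm31024 and part of Dyrk1b, a kinase gene, lie in the flanks of that window.

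Nop56 (chr2:130274367-130279313) and Nop58 (chr1:59684961-59711510) encode the paired core proteins of the same box C/D particles, and their introns carry small nucleolar RNA genes of that class. Nop56 had no H3K27ac peak in any 0 h list. At 24 h it was covered to 38.3, 100 and 41.6% in mb1-cre WT, 48.7, 90.4 and 47.4% in mb1-cre Xist fl/fl libraries, 0, 0 and 62.2% in TAT-Cre WT and 0% in all 3 TAT-Cre Xist fl/fl libraries. The peaks thus lay in all 6 mb1-cre lists and in 1 of 6 TAT-Cre lists. The difference between systems in that rise, TAT-Cre minus mb1-cre, was -4.50 on the log2 scale of signal share (SE 0.96, limma, adjusted p = 0.00764), in a test of that difference that called 5.88% of 9709 genes. As all 0 h values were 0, it compares the 24 h lists alone. It was not called by coverage, at -50.7 percentage points (adjusted p = 0.0506), or with quantile normalization (-2.08, adjusted p = 0.117). The window of Nop56 reaches into Idh3b, a mitochondrial enzyme gene that overlaps its end.

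Nop58 had narrower peaks. They covered 19.0, 14.9 and 14.2% of its window in mb1-cre WT libraries at 24 h, 25.8, 0 and 21.2% in mb1-cre Xist fl/fl libraries, 12.5, 0 and 16.1% in TAT-Cre WT and 0% in TAT-Cre Xist fl/fl cells. At 0 h the only list with a peak was TAT-Cre Xist fl/fl replicate 2, at 12.6%. The log2 difference in signal share was 2.78 (SE 0.78, adjusted p = 0.00669), whereas the exact stratified test of presence, 1 of 12 against 7 of 12 lists, gave an adjusted p of 0.0845.

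Nolc1 (chr19:46075847-46085543) encodes a nucleolar and Cajal body phosphoprotein that chaperones small nucleolar particles. It went from 0 of 12 lists to 10 of 12, the widest gain in presence among the members. Its window was covered to 35.3, 28.7 and 38.4% in mb1-cre WT and 26.9, 35.6 and 84.7% in mb1-cre Xist fl/fl libraries at 24 h. TAT-Cre libraries had 28.7, 0 and 27.4% (WT) and 41.0, 0 and 27.7% (Xist fl/fl). The peaks lay over the start of the gene and reached upstream of it.

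Npm1 (chr11:33152498-33164142), which encodes nucleophosmin, a histone chaperone of the granular component of the nucleolus, had H3K27ac in 0 of 12 lists at 0 h and 6 of 12 at 24 h. It was covered to 24.2, 0 and 93.7% in mb1-cre WT, 43.7, 41.1 and 41.5% in mb1-cre Xist fl/fl libraries, 0, 0 and 29.6% in TAT-Cre WT and 0% in TAT-Cre Xist fl/fl cells at 24 h. Odc1 (chr12:17544808-17551502) had an H3K27ac peak in 1 of 3 mb1-cre WT libraries, covering 40.6% of its window, and in 1 of 3 mb1-cre Xist fl/fl libraries, covering 63.2%, all at 24 h. It was below the filter and was not tested.

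**Figure D4:**
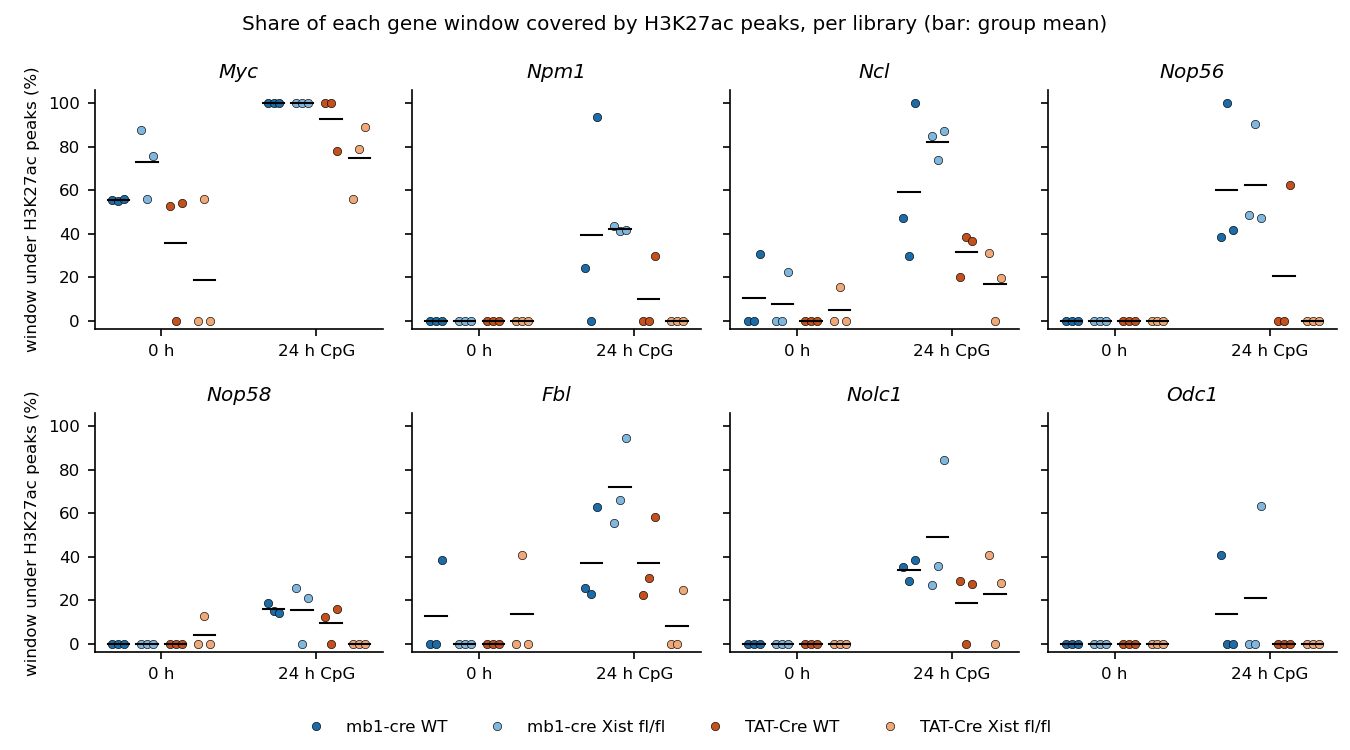
Percent of each gene's window under H3K27ac peaks (y axis) at 0 h and 24 h (x axis), 1 point per library coloured by system and genotype, with bars for group means. Myc starts at 54.8 to 56.1% in mb1-cre WT libraries and reaches 100%, while the target genes start at 0% in most 0 h libraries.

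Of the 4 tested members with a peak in any 0 h list, the exact stratified test of presence called Ncl and Fbl (adjusted p = 0.0226 each) and not Nop58 or Myc (adjusted p = 0.275), beside 31.0% of 8004 genes in either direction and 30.7% higher. These gains moved together with the floors of the lists. At 0 h, 6 of 12 lists had a floor at or below the median 24 h peak of Ncl (102 ppm), and 3 of those 6 held an Ncl peak. For Fbl 4 lists reached as low as its 24 h median of 70.1 ppm, and 2 of them held a peak. For Npm1, Nop56, Nop58, Odc1 and Nolc1, whose 24 h medians were 32.3 to 56.1 ppm, the only such 0 h list was TAT-Cre Xist fl/fl replicate 2, with a floor of 27.6 ppm and 10304 peaks. It held Nop58 and not the other 4.

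Counted list by list over Npm1, Ncl, Nop56, Nop58, Fbl, Nolc1 and Odc1, the 0 h lists held peaks on 0 to 3 of these 7 genes and the mb1-cre lists at 24 h on 5 to 7. TAT-Cre WT lists at 24 h held 4, 2 and 6, and TAT-Cre Xist fl/fl lists 2, 0 and 3. The list with 0 had a floor of 102 ppm, near those of several 0 h lists with 0. The 0 h list with the lowest floor, 27.6 ppm, held 3, and a 24 h list with a like floor of 27.7 ppm, mb1-cre Xist fl/fl replicate 1, held 6. When all lists were held to a common floor, a choice made after seeing the data, Myc was the only member that passed the filter (log2 difference 2.59, limma, adjusted p = 0.0952). It then had a peak in 4 of 24 lists, all at 24 h, and could only be higher, so this value does not test the gain. What part of the gain comes from longer lists was not tested beyond this.

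**Figure D5:**
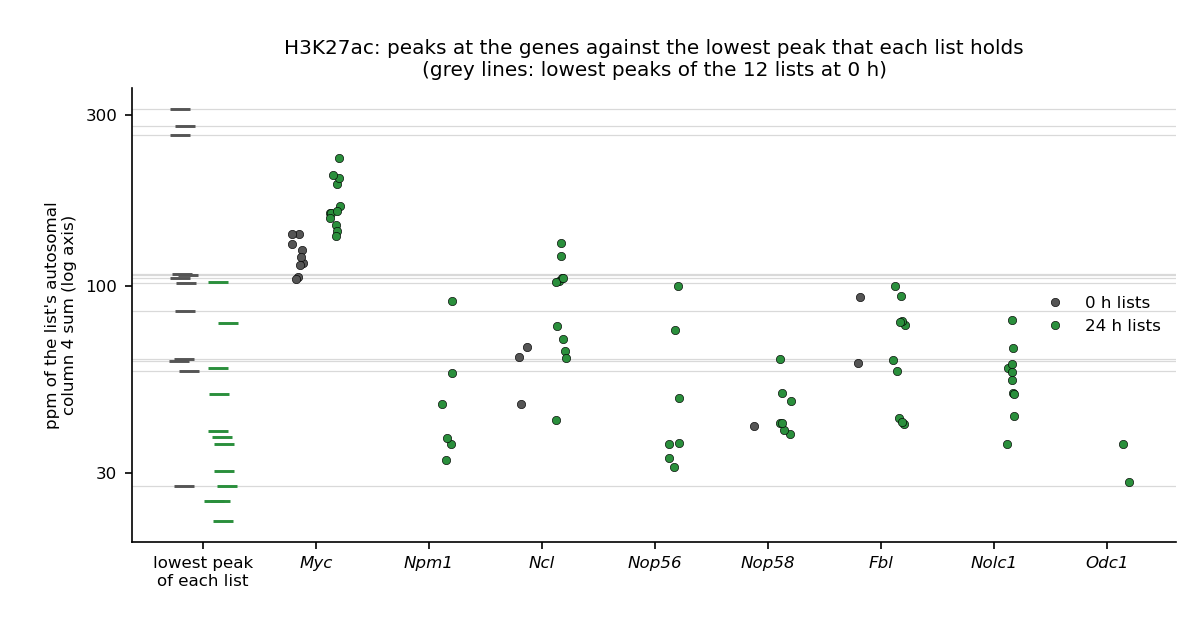
Signal of the H3K27ac peaks at 8 members (points, ppm of each list's autosomal signal, log axis) beside the lowest peak of each of the 24 lists (left, dashes), with grey lines for the floors of the 12 lists at 0 h. Most 24 h peaks of the target genes lie under most of the 0 h floors, which range from 27.6 to 312 ppm.

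Npm1 stood in a gap between Polycomb peaks. Neither mark had a peak over the middle of the gene, in 0 of 29 H3K27me3 and 0 of 24 H2AK119Ub lists. The nearest H3K27me3 peak on the lower side ended a median 3937 bp before the gene, and the nearest on the upper side began a median 871 bp past it, leaving a gap of a median 16785 bp around a gene of 11645 bp. In 28 of 29 lists that lower peak lay on Fgf18, a fibroblast growth factor gene; the exception, mb1-cre WT 0 h replicate 2, had no H3K27me3 peak on that side within 20 kb. In 21 of 29 the nearest upper peak reached Tlx3, a homeobox gene. For H2AK119Ub the gap was a median 15514 bp, and 8838 bp at its smallest, less than the gene. Its peaks touched the gene itself in 13 of 24 lists and reached up to 3342 bp into it from the upper side. The lower boundary of H3K27me3 lay 1508 to 4364 bp before the gene in 16 mb1-cre lists and 5192 to 6311 bp before it in 12 TAT-Cre lists, which did not overlap. That of H2AK119Ub did overlap between systems, at -595 bp, which is inside the gene, to 3684 bp in 10 mb1-cre lists and 1994 to 5854 bp in 11 TAT-Cre lists.

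As these domains reach into the 2 kb flanks, Npm1 was listed with H3K27me3 in 22 of 29 libraries, but in only 5 of these did a peak touch the gene itself. The share in the window was 22.1, 35.1, 11.3 and 17.2 ppm at 0 h in mb1-cre WT libraries and 30.2, 13.2, 0 and 20.4 ppm at 24 h. In mb1-cre Xist fl/fl libraries it was 18.3, 25.8, 8.53, 20.0 and 23.1 ppm and then 12.8, 14.0, 23.2 and 28.1 ppm, with means of 19.1 and 19.5 ppm. TAT-Cre WT cells had 38.2, 23.5 and 0 ppm and then 0 in all 3 libraries, and TAT-Cre Xist fl/fl cells 18.5, 7.77 and 6.80 ppm and then 0, 13.6 and 0 ppm. The log2 difference with CpG was -1.63 (SE 0.55, adjusted p = 0.114) and did not pass the test. Between systems it was -2.04, lower in TAT-Cre cells (SE 0.55, adjusted p = 0.036), in a fit that called 4.3% of 11663 genes. That call was lost with the gene body alone (-0.41, adjusted p = 0.413) and when any of 13 of the 29 libraries was left out.

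Among the other targets, Nop58 and Odc1 had peaks of both Polycomb marks, and Ncl, Nop56, Fbl and Nolc1 had H2AK119Ub peaks alone. H3K27me3 at Nop58 went from 1 of 4 to 4 of 4 lists in mb1-cre WT and from 1 of 5 to 3 of 4 in mb1-cre Xist fl/fl libraries, and from 2 of 3 to 0 of 3 in both TAT-Cre genotypes. It covered at most 8.55% of the window. These counts moved together with the floors of the lists. Floors in mb1-cre WT were 41.8 to 158 ppm at 0 h and 14.5 to 40.6 ppm at 24 h. In TAT-Cre WT they were 16.9 to 93.6 ppm and then 53.1 to 85.6 ppm. At 0 h 5 of 15 lists reached the median 24 h peak of 35.7 ppm, and 4 of those held a peak. At 24 h 9 of 14 lists reached the 0 h median of 42.3 ppm, and 7 of those held one. The part of the floors in the counts was not tested. The difference between systems in the CpG difference was -4.42 on the log2 scale (SE 1.14, adjusted p = 0.00989), in a test that called 20.3% of 11663 genes. That call was lost with the gene body alone (-0.18, adjusted p = 0.811), the peaks touching the gene itself in 5 of 13 lists. It was also lost with quantile normalization (-1.31, adjusted p = 0.186) and with the strongest 50% of peaks (-2.79, adjusted p = 0.0675). H2AK119Ub at Nop58 went from 7 of 12 lists to 2 of 12, a log2 difference of -1.66 (SE 0.74, adjusted p = 0.0768). All 12 lists at 24 h had floors low enough to hold the median 0 h peak. Odc1 had H2AK119Ub in 14 of 24 lists and H3K27me3 in 4 of 29, all in mb1-cre cells at 24 h. Ncl, Nop56, Fbl and Nolc1 had H2AK119Ub in 4, 8, 9 and 4 of 24 lists.

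For H2AK119Ub all 10 members were tested for the CpG difference in signal share and 0 were called, beside 42.6% of 20695 genes in limma (37.6% higher and 4.97% lower), with unadjusted p-values under 0.05 for Myc and Nop58. For H3K27me3 5 members were tested and 0 were called, beside 3.51% of 11663 genes (3.15% higher and 0.36% lower), with an unadjusted p under 0.05 for Npm1.

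Loss of Xist was not accompanied by a called change at any of these autosomal genes. Over the 3 comparisons in which the cells had met Cre, 0 of 7 tested members were called for H3K27ac (0.7% of 9709 genes), 0 of 10 for H2AK119Ub (0.333% of 20695) and 0 of 5 for H3K27me3 (0.0343% of 11663), all in limma. None of these members had an unadjusted p under 0.05, and the exact test of presence called 0 genes of any kind for each mark in the full lists. For H3K27me3 that test called 4 genes in lists of equal length and 2 with a common floor, and 0 members in either. The widest H3K27ac differences were -1.78 for Fbl (SE 0.99, adjusted p = 0.617) and -1.77 for Nop58 (SE 0.90, adjusted p = 0.585). For Myc the difference was 0.11 (SE 0.85) in H3K27ac and -0.45 (SE 0.95) in H2AK119Ub. In the TAT-Cre baseline before Cre, Myc H3K27ac differed by -2.02 (SE 1.48, adjusted p = 0.715). The standard errors leave differences of that size unresolved.

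Between systems, H3K27ac signal share was called lower in TAT-Cre cells for 1 of 7 tested members, Nop56, beside 8.12% of genes in either direction and 7.75% lower. With all its 0 h values at 0, this is the comparison of 24 h lists already given for Nop56. That gene passed the filter through the mb1-cre lists, where it was high, so the count is given without further reading. In coverage 3 of 7 were lower, Nop56 again, Myc by -26.7 percentage points (SE 7.24, adjusted p = 0.00889) and Ncl by -26.2 (SE 6.67, adjusted p = 0.00634), beside 43.7% of all genes. The Myc value includes 3 TAT-Cre lists at 0 h with 0% covered, whose floors of 264 to 312 ppm lay above any Myc peak. The part of those lists in the difference was not tested. The H3K27ac lists of TAT-Cre Xist fl/fl cells at 24 h were also among the shortest of that time, with 4263, 3646 and 6195 peaks against 5421 to 10125 in the others.

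The wider pathway was read from 3 lists assembled with earlier results of these data known. Of the Myc network, the dimerisation partners, antagonists and cofactors of MYC, 11 of 14 genes were tested for H3K27ac and 7 were higher at 24 h and 0 lower, with a median log2 difference of 2.75. Over all genes tested 44.3% were higher and the median was 1.66. In 3 of the 7 the direction was fixed, since they had no peak at 0 h and passed the filter through 24 h lists alone: Mxd1 and Mxi1, antagonists of MYC, went from 0 of 12 lists to 7 and 8, and Mlx, which pairs with the related MLXIP proteins, from 0 to 8. The helicase gene Ruvbl1 went from 1 list to 8 (3.08, SE 0.59, adjusted p = 0.000402). For H2AK119Ub 7 of 14 tested were higher and 0 lower (median 2.18), beside 37.6% higher of all genes (median 1.28). Among them were the antagonist Mxd4, in 4 lists at 0 h and 12 at 24 h (3.84, adjusted p = 5.37e-05), and Mlx, in 3 and 11 (3.37, adjusted p = 0.000687). Mxd1 and Mnt, a further antagonist, went from 0 lists to 9 and 7. They were among 3 of the 7 that had no H2AK119Ub peak at 0 h and could only be higher.

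Of 46 further genes of ribosome biogenesis, 34 were tested for H3K27ac, of which 21 were higher and 0 lower (median 2.63), beside 44.3% higher of all genes (median 1.66). Of the 21, 9 had no peak at 0 h and could only be higher. Among these were Utp4, Ftsj3, Nvl and Nop2, which encode assembly factors and an rRNA methyltransferase, with peaks in 11, 10, 10 and 8 of 12 lists at 24 h. For H2AK119Ub 10 of 34 were higher and 1 lower (median 0.92), a smaller part than the 37.6% higher of all genes (median 1.28), led by Tcof1 (3.71, adjusted p = 0.000383) and Noc2l (3.23, adjusted p = 0.000753). Of the 10, 2 had no H2AK119Ub peak at 0 h and could only be higher. For H3K27me3 9 were tested and Heatr1, a factor of rRNA transcription and processing, was higher, with peaks in 4 of 15 lists at 0 h and 12 of 14 at 24 h (2.44, SE 0.37, adjusted p = 0.000345).

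Of 23 other targets commonly given for Myc, 18 were tested for H3K27ac, with 17 higher and 0 lower (median 4.02), beside the same 44.3% and 1.66. Of the 17, 5 had no peak at 0 h and could only be higher, among them Ccnd2 and Nme2, with peaks in 11 and 10 of 12 lists at 24 h. For H2AK119Ub 7 of 17 were higher and 1 lower (median 1.39), beside 37.6% and 1.28. Of the 7, 1 had no H2AK119Ub peak at 0 h and could only be higher. For H3K27me3 3 were tested and Ccnd2, the gene of cyclin D2, was lower (-3.66, SE 0.54, adjusted p = 0.000272). H3K27me3 covered a median 19.8% of the Ccnd2 window in 15 lists at 0 h and 3.19% in 14 lists at 24 h, while H3K27ac covered 0% in all 12 lists at 0 h and a median 20.9% at 24 h. Held to lists of equal length, 3 of 3 tested ribosome biogenesis genes and 1 of 4 of the Myc network were higher in H3K27ac, beside 25.3% of all genes, and 0 other targets could be tested. For H2AK119Ub these numbers were 0 of 3, 1 of 4 and 0 of 3 higher, with 1, 1 and 0 lower, beside 27.1% higher and 17.2% lower of 5380 genes. For H3K27me3 neither Heatr1 nor Ccnd2 was called, beside 3.54% of 4892 genes.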

How the data were processed

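Peak lists of H3K27ac (24 libraries), H2AK119Ub (24) and H3K27me3 (29) were read. The submitters' processing notes name Trimmomatic 0.32, Bowtie2 2.3.4.1, Picard, deepTools 3.5.1 and the mm10 build. Yeast DNA was spiked in, per the labels' protocols. The deposited files are SEACR relaxed lists, per their names, called by the authors for each library, and column 4 holds the total signal of a peak; SEACR's version and any control or spike-in scaling were not given in the sources used here.

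Each gene window of 34328 RefSeq genes was given the presence of a peak (1 bp overlap), the percent covered and its part of the list's autosomal signal in ppm. A gene needed a peak in 3 or more libraries of a mark to be tested, which was done with limma 3.58.1 (R 4.3.3) on log2(ppm + 1) or on percent covered, with group means, all groups of a mark in 1 fit and Benjamini-Hochberg adjustment over all genes (threshold 0.05). Differences are thus on the log2(ppm + 1) scale, which understates those of low genes. Presence was tested exactly, stratified by system and genotype. Tests were checked on simulated data. Replicate numbers did not pair 0 h with 24 h samples: deviations of same-numbered libraries correlated above 0.1 in 0 of 12, 0 of 12 and 1 of 14 pairs. Same-numbered WT and Xist fl/fl libraries did so in 3 of 12, 3 of 12 and 4 of 14 pairs, in a range of -0.356 to 0.483. Replicate lists shared at most 0.199% identical peaks. Named genes outside the members were the 4 of each list with the smallest adjusted p per mark among those called, and the 5 most correlated with Myc. The members and lists were chosen with earlier results of these data known. Alternatives were another pseudocount, filter, flank, overlap, normalization, list length and left-out libraries. Python 3.11.15 was used for all else.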

Additional observations from a re-analysis of the deposited data

Results flagged for a closer look

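Of 18 groups of 4 or 5 H3K27me3 libraries tested for a member with a peak, 3 held a library that stood far from the rest. In each of the 3 all other libraries were at 0. Any single peak had to be flagged there, so the count cannot be set against a chance rate. Nop58 was at 15.1 ppm in 1 of 4 mb1-cre WT 0 h libraries and at 14.6 ppm in 1 of 5 mb1-cre Xist fl/fl 0 h libraries, with 0 in the others. Odc1 was at 2.85 ppm in 1 of 4 mb1-cre WT 24 h libraries, with 0 in the other 3. The CpG difference was lower in TAT-Cre than in mb1-cre cells for Nop56 in H3K27ac (-4.50 on the log2 scale) and for Nop58 in H3K27me3 (-4.42, limma, adjusted p = 0.00989). For Nop56, at 0 in every 0 h list, this compares the 24 h lists alone. That gene passed the filter through the mb1-cre lists, where it was high, so its value is given with no test. For Nop58 the difference was not called with the gene body alone (adjusted p = 0.811), quantile normalization (adjusted p = 0.186) or the upper 50% of each list's peaks (adjusted p = 0.0675). The Nop58 peaks also moved together with the floors of the lists, as given above.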

How the results depend on the processing

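Of the 7 members called for H3K27ac with CpG, 0 of 1 tested were called in lists trimmed to the shortest, by signal or by coverage, and 0 of 1 with a common floor, because 6 members then fell below the filter. The 1 left was Myc, which then had peaks at 24 h alone and could only be higher. With the upper 50% of each list's peaks by highest signal 2 of 5 were called, and Ncl, Fbl and Nolc1 lost the call. Leaving out any library kept Ncl, Nop58 and Fbl called, and Myc in 22 of 24 cases. Npm1, Nop56 and Nolc1 also stayed called, but with no peak at 0 h they could only be higher. For H2AK119Ub with CpG the 0 became 1 by coverage (Mycn, 9.20 points, adjusted p = 0.00757, against a negative difference in signal), 1 in trimmed lists by signal (Npm1) and by coverage, 1 in the upper 50% of peaks, 2 with quantile normalization, 1 with a common floor (Mycl, 4.59, adjusted p = 0.00442, against a negative difference in signal) and 1 without the 0 h lists of under 3000 peaks (Nop58). Leaving out a library gave 0 to 1, calling Nop58 in 5 cases, Myc in 3 and Fbl in 1. For H3K27me3 the 0 became 1, each time Npm1, with the whole signal of each peak, trimmed lists, quantile normalization and a common floor, and leaving out a library gave 0 to 1, with TAT-Cre WT 0 h replicate 3 (-2.04, adjusted p = 0.0133) or Xist fl/fl 24 h replicate 2 out. The causes were not tested.

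With the replicate block, counts were 7 for H3K27ac, 1 for H2AK119Ub (Nop58, adjusted p = 0.0422) and 0 for H3K27me3. The numbers did not pair 0 h with 24 h samples. Genotype counts stayed at 0 in every alternative run. The Nop56 difference between systems in the H3K27ac rise, given with no test, was -2.08 with quantile normalization. Of 887 single-gene CpG values under alternatives, 853 kept their status as called or not called, 22 became called and 10 lost the call. The other 2 became called with the direction reversed. Where neither value was called, a change of direction was not counted. The common floor and the lists left out by length were chosen after seeing the data. The floor of each list limits what can be seen, and signal scaling between lists is unknown.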
